A study of Mus musculus with 7 samples.

Results

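The kinesin superfamily was followed through a knockdown of the long noncoding RNA lnc-31 in C2C12, an established line of murine myoblasts whose dividing precursors can be switched to form muscle. Its members were the rows of the deposited expression table with a gene name that begins with Kif or Klc and a number, which gave 33 of 13376 rows. The members were sorted by known role into 11 mitotic kinesins, 13 transport kinesins, 4 kinesin light chains and 5 others. Proliferating cells that received an siRNA against lnc-31 gave 2 libraries, and cells that received a scrambled siRNA gave the other 2. A pull-down of RNA with antisense probes against lnc-31 or against lacZ, 1 library each and both from C2C12 cells, was read for peaks inside kinesin genes. The labels name no further treatment, and leave open whether both libraries of a condition came from cells grown apart, which means that the p-values rest on a spread that may be technical. Levels are in FPKM, fragments scaled to the length of the transcript and to the size of the library, and can be compared between genes. The number of reads is unknown from the table.

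Kinesins are motor proteins that walk along microtubules by hydrolysing ATP. Dividing cells use one group of them to build the spindle, move chromosomes and complete cytokinesis, and the genes of these motors are switched on late in the cell cycle. Another group carries organelles, vesicles and RNA towards the plus ends of microtubules in all cells, and conventional kinesin among them pairs KIF5 heavy chains with KLC light chains that bind cargo. In muscle cells conventional kinesin is known to move and space the nuclei of the growing myotube.

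The check of the samples came out as follows. Of 7 myoblast markers, 5 had a row, and Myod1, Myf5, Des, Cdh15 and Chrna1 summed to 428.7 and 440.1 FPKM with lnc-31 siRNA, against 360.2 and 363.7 FPKM with scrambled siRNA. Of the ciliated cell markers only Ccdc39 had a row, at 0.379 and 0.502 FPKM with lnc-31 siRNA and 0.491 and 0.487 FPKM with scrambled siRNA. Of the epithelial, endothelial and blood markers only Krt8 had one, at 0.54 and 0.517 FPKM with lnc-31 siRNA and 0.0993 and 0.143 FPKM with scrambled siRNA. The lnc-31 transcript hosts miR-31, and the table row listed under Mir31 held 12.1 and 14.1 FPKM in the libraries labelled lnc-31 siRNA and 13.4 and 15.6 FPKM in those with scrambled siRNA (log2 fold change -0.14, limma, adjusted p = 0.38). Whether this row measures lnc-31 could not be settled from the table, so the knockdown was not checked here, and every direction given here is that of the libraries labelled lnc-31 siRNA. Over all rows, replicate libraries had a Spearman correlation of 0.991 with lnc-31 siRNA and 0.993 with scrambled siRNA. Summed FPKM of all tested rows was 2.14e+06 and 2.20e+06 with lnc-31 siRNA, but 1.51e+06 and 2.47e+06 with scrambled siRNA. The median log2(FPKM + 1) of these rows was 3.90 and 3.92 with lnc-31 siRNA and 3.90 and 3.94 with scrambled siRNA.

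All kinesins that passed the test belonged to the mitotic class. Of 11 mitotic kinesins, 6 fell (Kif11, Kif20b, Kif22, Kif23, Kif20a and Kif18b) and none rose, and mean FPKM fell by 14.8% for Kif20a at the least and fell by 21.4% for Kif11 at the most. The remaining 5 (Kif14, Kif18a, Kif15, Kif4 and Kif2c) had log2 fold changes of -0.29 to -0.11 that did not pass. No transport kinesin, light chain or other kinesin passed in either direction. The test was limma on log2(FPKM + 1) over the 11500 rows that averaged at least 1 FPKM, two-sided, with Benjamini-Hochberg adjustment at 0.05, and 32 of the 33 members entered it. Over all tested rows it called 6.78% lower and 5.64% higher. Fold changes are given on that scale throughout, where the added 1 shrinks differences between low values. On mm10 coordinates Kif11 spans chr19:37376382-37421863, Kif20b chr19:34922335-34975750, Kif22 chr7:127027729-127042467, Kif23 chr9:61917277-61946810 and Kif18b chr11:102905518-102925134.

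**Figure D1:**
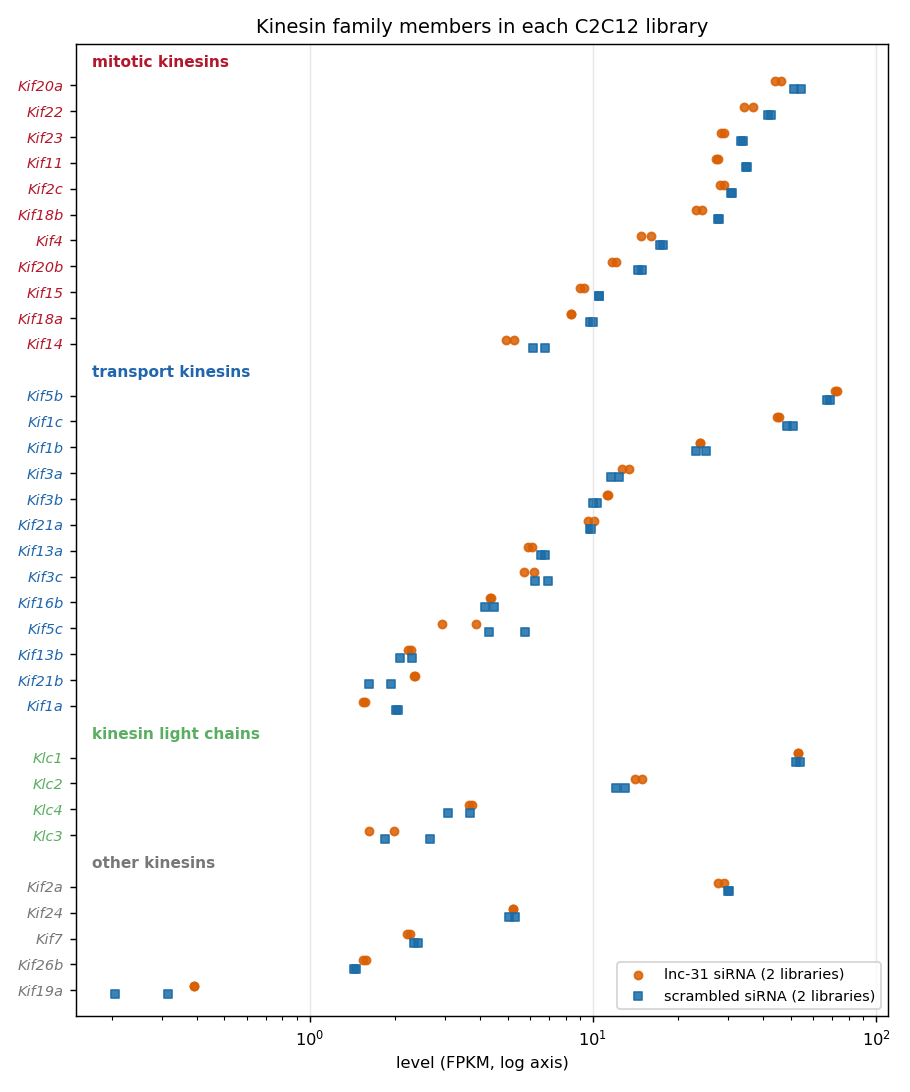
Level of each of the 33 members in each library (FPKM, log axis), with circles for the 2 libraries labelled lnc-31 siRNA and squares for the 2 with scrambled siRNA, by role. The circles lie left of the squares in all 11 mitotic kinesins, while in the transport kinesins they lie left in 5 genes and right in 4, and the groups overlap in the other 4. Over all tested rows the groups were apart with lnc-31 siRNA lower in 31.7% and higher in 28.5%.

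Kif11, also known as Eg5, is the plus-end motor that slides the microtubules of opposite poles apart to make a spindle with 2 poles. It stood at 27.7 and 27.1 FPKM with lnc-31 siRNA, against 34.7 and 35.1 FPKM with scrambled siRNA. Both libraries labelled lnc-31 siRNA lay below both with scrambled siRNA, and the gap was many times the difference within either group. The log2 fold change was -0.34 (95% interval -0.44 to -0.23, limma, adjusted p = 0.011), the lowest of any mitotic kinesin. Kif15, a second plus-end spindle motor that can stand in for Kif11, stood at 8.99 and 9.30 FPKM with lnc-31 siRNA and at 10.54 and 10.52 FPKM with scrambled siRNA. Its groups did not overlap either, but its log2 fold change of -0.18 did not pass (adjusted p = 0.08).

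Kinesins of the central spindle and of cytokinesis came next. Kif23, which with the GTPase regulator Racgap1 forms centralspindlin, the bundler of the midzone, stood at 28.3 and 28.9 FPKM with lnc-31 siRNA and at 33.4 and 33.9 FPKM with scrambled siRNA. Its log2 fold change was -0.23 (limma, adjusted p = 0.028). Racgap1 fell too, to 121.1 and 124.6 FPKM with lnc-31 siRNA, against 151.5 and 158.0 FPKM with scrambled siRNA, and the Kif23 to Racgap1 ratio was 0.234 and 0.232 against 0.221 and 0.215. Both partners were therefore lower, and their ratio was slightly higher with lnc-31 siRNA.

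Kif20a, which brings the chromosomal passenger complex to the midzone, was the most abundant mitotic kinesin. It stood at 43.8 and 46.1 FPKM with lnc-31 siRNA and at 54.3 and 51.2 FPKM with scrambled siRNA, a log2 fold change of -0.23 (limma, adjusted p = 0.044). This was the call nearest the threshold, and its scrambled siRNA libraries were the widest apart in FPKM of the 11. Kif20b, a motor of late cytokinesis, stood at 11.6 and 12.1 FPKM with lnc-31 siRNA and at 14.4 and 14.9 FPKM with scrambled siRNA. It had the second lowest log2 fold change among the called members, -0.29 (limma, adjusted p = 0.028).

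Kif14, which recruits citron kinase to the cleavage furrow, was the least abundant mitotic kinesin, at 5.27 and 4.94 FPKM with lnc-31 siRNA and 6.13 and 6.76 FPKM with scrambled siRNA. Its log2 fold change of -0.29 equalled that of Kif20b, but its libraries were more spread and it did not pass (adjusted p = 0.063). Kif4, the chromosome-bound motor that sets midzone length together with Prc1, stood at 14.8 and 16.0 FPKM with lnc-31 siRNA and at 17.7 and 17.3 FPKM with scrambled siRNA (log2 fold change -0.17, adjusted p = 0.103). The Kif4 to Prc1 ratio was 0.278 and 0.289 with lnc-31 siRNA and 0.284 and 0.281 with scrambled siRNA, so the ratios of the 2 groups overlapped.

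Other mitotic kinesins move chromosomes or trim microtubule ends. Kif22, the chromokinesin that pushes chromosome arms away from the poles, stood at 36.6 and 34.2 FPKM with lnc-31 siRNA and at 41.6 and 42.6 FPKM with scrambled siRNA (log2 fold change -0.24, limma, adjusted p = 0.036). Kif18b, which shortens astral microtubules, stood at 23.1 and 24.2 FPKM with lnc-31 siRNA and at 27.9 and 27.7 FPKM with scrambled siRNA (log2 fold change -0.22, limma, adjusted p = 0.036). Both fell, with no overlap between groups. Kif18a, which dampens chromosome movement at the metaphase plate, stood at 8.38 and 8.35 FPKM with lnc-31 siRNA and at 9.77 and 9.99 FPKM with scrambled siRNA, and at a log2 fold change of -0.22 it just missed the threshold (adjusted p = 0.056).

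Kif2c, or MCAK, which removes tubulin from microtubule ends at the centromere, had the smallest difference of the class. It stood at 28.0 and 28.9 FPKM with lnc-31 siRNA and at 30.7 and 30.97 FPKM with scrambled siRNA (log2 fold change -0.11, 95% interval -0.22 to -0.0042, adjusted p = 0.15). The Kif2c to Kif11 ratio within a library was 1.01 and 1.07 with lnc-31 siRNA and 0.885 and 0.883 with scrambled siRNA, so Kif11 was the more abundant of the pair only with scrambled siRNA. This pair was chosen after its values were seen, and the difference between the genes was not tested.

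**Figure D2:**
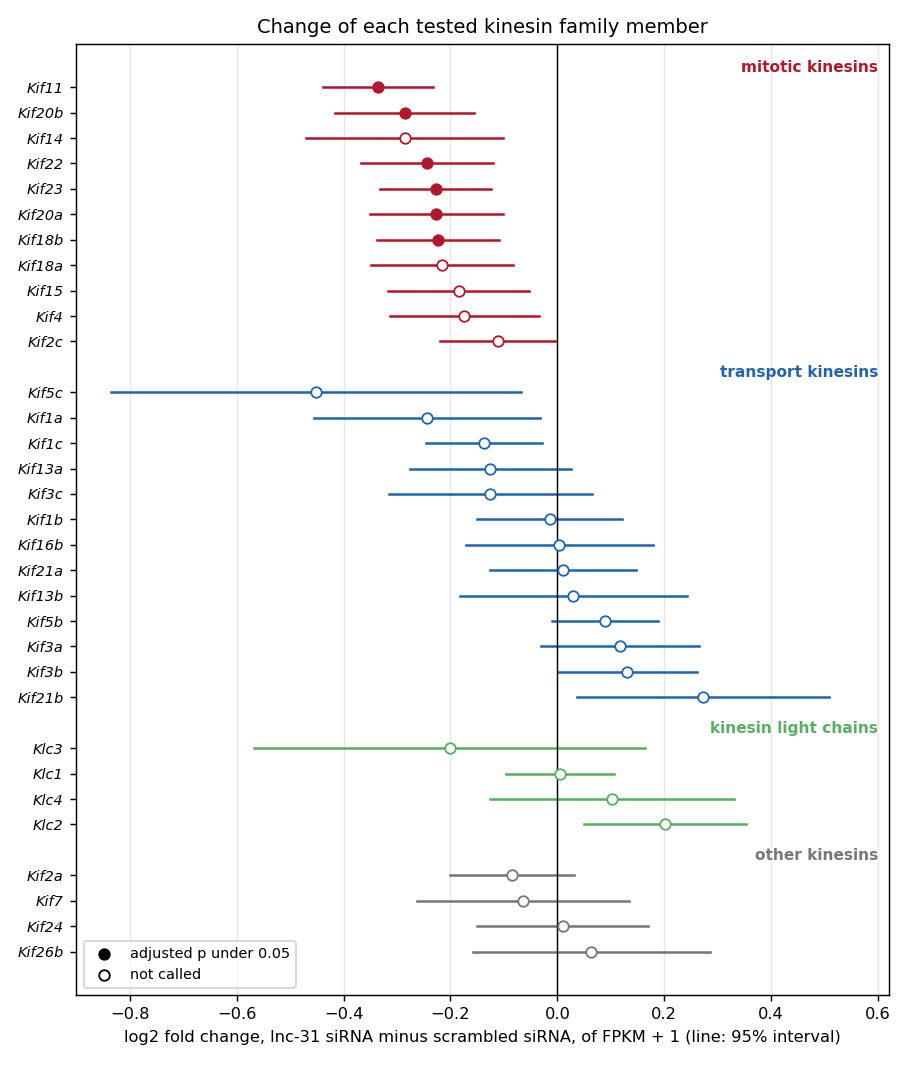
Log2 fold change of each of the 32 tested members, lnc-31 siRNA minus scrambled siRNA, with its 95% interval from limma, by role (filled points passed at an adjusted p under 0.05). All 11 mitotic kinesins lie below 0 with 6 filled points, and the 13 transport kinesins lie on both sides, from -0.45 for Kif5c to 0.27 for Kif21b.

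The mitotic class as a whole had a median log2 fold change of -0.23, against -0.01 over all tested rows. The groups did not overlap in any of its 11 members, each lower with lnc-31 siRNA, and the same held in 31.7% of all tested rows. The naming rule leaves Cenpe, the kinetochore kinesin, out of this class, and its groups overlapped (log2 fold change -0.06, no call). At an unadjusted p under 0.05 all 11 were lower, against 16.4% of all rows. Outside the class, Kif2a of the spindle poles (log2 fold change -0.09), the minus-end motor Kifc1 (-0.13) and Cenpe were not past that threshold. Kifc5b, a near-identical copy of Kifc1, was past it and lower (-0.21). Members and roles were chosen with earlier results of these data known, so the count of 11 depends on that choice. The calls needed all 4 libraries. Without lnc-31 siRNA 1, Kif11 alone was called lower (adjusted p = 0.042), with 1.96% of all rows called lower. Without lnc-31 siRNA 2, scrambled siRNA 1 or scrambled siRNA 2, limma called 0 members, with 2.1%, 1.37% and 0.843% of all rows called lower. Kif11 then had adjusted p = 0.051, 0.066 and 0.069, and the other 5 called kinesins had adjusted p between 0.058 and 0.173 with any 1 library left out. All 11 stayed below 0 in each of these 4 fits and in the 8 other alternatives tried. With a constant prior variance in place of a trended one, Kif11 and Kif20b alone of the class were called, and 4.96% of all rows were called lower. Pseudogene copies of Kif4 and Kif22 are annotated in the mouse genome, and reads shared with them could move the values of these 2 genes.

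Markers of muscle differentiation moved with the mitotic kinesins in the opposite direction. The counts of markers below stand beside 5.64% of all tested rows called higher and 6.78% called lower. All 6 with a row (Actc1, Myh3, Mylpf, Tnnc2, Ckm and Myog) rose, with log2 fold changes of 0.71 to 0.86 and calls kept with any 1 library left out, and summed to 338.2 and 349.9 FPKM with lnc-31 siRNA, against 187.6 and 211.6 FPKM with scrambled siRNA. Of 5 myoblast markers 4 rose, Chrna1 (0.54), Myod1 (0.36), Cdh15 (0.25) and Des (0.24). The fifth, Myf5, stood at 35.2 and 35.4 FPKM with lnc-31 siRNA and at 38.6 and 37.5 FPKM with scrambled siRNA, with the groups apart and no call (log2 fold change -0.10, limma, adjusted p = 0.156). Of the 4 that rose, with 1 library left out only Chrna1 kept its call each time. The fibroblast markers Dcn and Pdgfrb rose, 2 of 3, and the list summed to 63.3 and 64.1 FPKM with lnc-31 siRNA and 50.8 and 51.9 FPKM with scrambled siRNA. Pdgfrb lost its call with any 1 library left out (adjusted p between 0.098 and 0.139). The neural markers Map2 and Stmn2, 2 of 6 with a row, summed to 69.0 and 69.5 FPKM with lnc-31 siRNA and 71.7 and 75.6 FPKM with scrambled siRNA, and neither passed. With a constant prior variance 2 myoblast and 1 fibroblast marker were called higher, and without a filter on low values Krt8 was. The replicate block called 1 of the neural markers lower. Of all rows, these fits called 9.39% (constant prior variance), 9.67% (no filter) and 14.0% (replicate block) in either direction. The part that a changed mix of cells had in the kinesin values was not tested.

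The start regions of the mitotic kinesins are shown because genes switched on in G2 and mitosis often carry a CHR element (cell cycle genes homology region), which the DREAM complex and its MuvB core with B-MYB and FOXM1 bind close to the transcript start, frequently beside CCAAT boxes bound by NF-Y. RefSeq promoter windows on GRCm38.p6, from 250 bases before to 50 after the start, were found for 27 of the 33 members and 10 of the 11 mitotic kinesins. The stretches below run from 60 bases before to 25 after the start, 5′ to 3′ on the gene's strand, with CHR matches in capitals. The first 7 hold such a match, and Klc1, the most abundant light chain, is shown as one that holds none. The other mitotic kinesins with a window, Kif14, Kif18a and Kif2c, held no CHR match in this stretch and are not printed.
Kif11: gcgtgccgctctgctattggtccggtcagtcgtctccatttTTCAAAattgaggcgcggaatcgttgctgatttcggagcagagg
Kif15: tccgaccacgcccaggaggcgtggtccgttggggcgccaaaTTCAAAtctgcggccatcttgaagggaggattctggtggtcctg
Kif22: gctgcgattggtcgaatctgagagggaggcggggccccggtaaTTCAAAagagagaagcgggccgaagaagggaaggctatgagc
Kif18b: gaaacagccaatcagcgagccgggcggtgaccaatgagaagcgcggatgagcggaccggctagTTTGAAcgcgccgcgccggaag
Kif23: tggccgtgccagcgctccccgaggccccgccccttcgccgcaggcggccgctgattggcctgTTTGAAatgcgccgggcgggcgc
Kif20b: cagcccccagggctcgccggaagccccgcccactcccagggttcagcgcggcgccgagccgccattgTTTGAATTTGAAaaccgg
Kif4: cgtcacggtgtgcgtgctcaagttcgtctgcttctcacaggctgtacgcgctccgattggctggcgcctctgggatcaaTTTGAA
Klc1: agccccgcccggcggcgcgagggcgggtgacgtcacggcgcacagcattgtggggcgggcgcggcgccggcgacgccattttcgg
These stretches lie at chr19:37376322-37376406, plus strand (Kif11), chr9:122951021-122951105, plus strand (Kif15), chr7:127042396-127042480, minus strand (Kif22), chr11:102925100-102925184, minus strand (Kif18b), chr9:61946775-61946859, minus strand (Kif23), chr19:34922298-34922382, plus strand (Kif20b), chrX:100626005-100626089, plus strand (Kif4) and chr12:111758808-111758892, plus strand (Klc1).

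The CHR match was searched as TTTGAA or TTCGAA on both strands, so that TTCAAA is a match on the other strand, and CCAAT likewise. TTCGAA reads the same on both strands, and neither motif contains the other. In Kif11 and Kif15 the CHR match began 19 bases before the start and in Kif22 it began 17 bases before. In Kif23, Kif18b, Kif20b and Kif4 it began 2, 3, 7 and 19 bases after, and Kif20b held a second match right behind the first. The 85 bases shown are a stretch chosen after the matches were seen, so the counts over it depend on that choice. The 5 called members with a window, Kif11, Kif18b, Kif20b, Kif22 and Kif23, each held a match in it. In the 250 bases before the start, 2 of these 5 held one, against 19.6% of all genes with a window. Over the 85 bases, 7 of 10 mitotic kinesins and 1 of 10 transport kinesins (Kif1a) held a match. So did 2 of 4 other kinesins (Kif24 and Kif26b) and none of 3 light chains, against 5.48% of all 27025 genes with a promoter window. Kif15 and Kif4 held one without passing the test.

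In the 250 bases before the start, 5 of 10 mitotic kinesins and 2 of 4 other kinesins held a CHR match. So did 1 of 10 transport kinesins and none of 3 light chains, against 19.6% of all genes with a window. A CCAAT match stood there in 6 of 10 mitotic kinesins, 3 of 10 transport kinesins, 2 of 3 light chains and 2 of 4 other kinesins. Of all genes with a window 37.5% held one. In Kif11 a CCAAT match began 45 bases before the start and in Kif22 one began 54 bases before it, upstream of the CHR match in both. The window of Kif18a held neither motif, and Kif24 and Kif26b, outside the mitotic class, held a CHR match 26 and 9 bases before the start. A match is a run of letters and no evidence of binding.

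**Figure D3:**
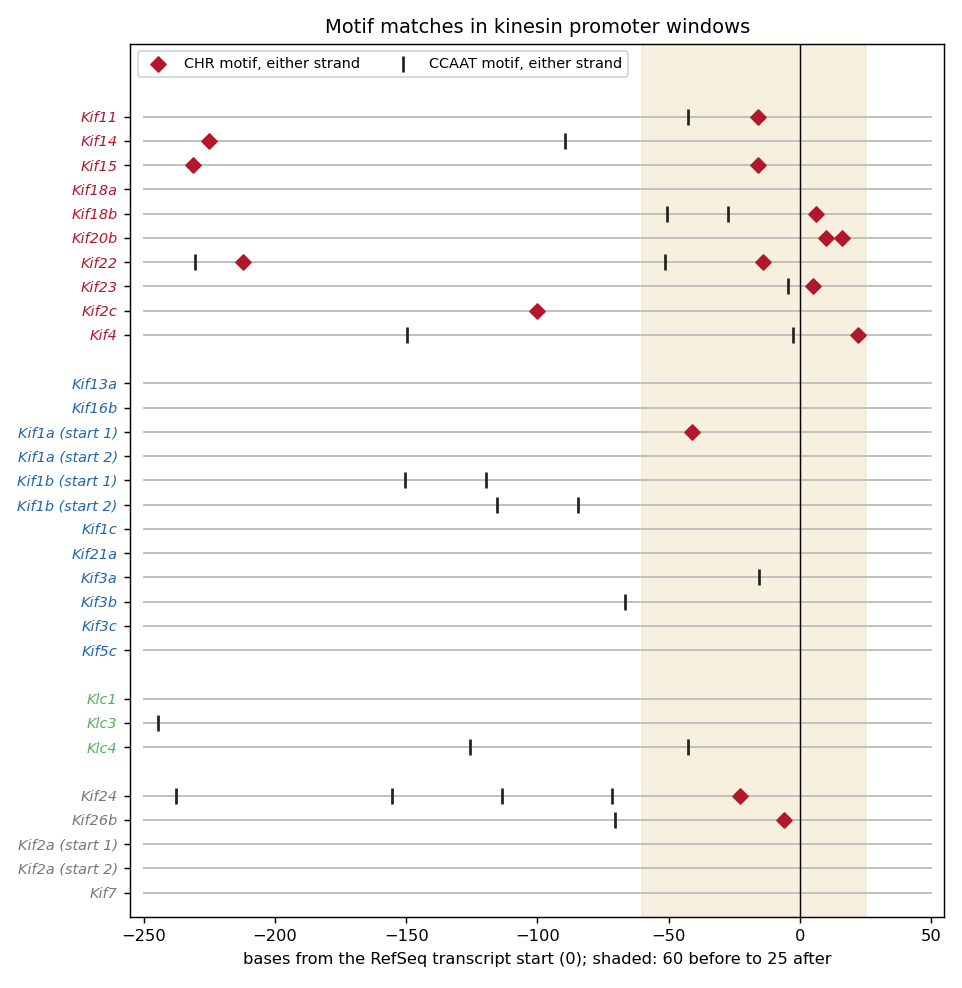
Motif matches in each RefSeq promoter window of 27 members, by distance in bases from the transcript start (0), with diamonds for CHR and bars for CCAAT on either strand; genes with 2 starts have 2 lines. Of 10 mitotic kinesins, 7 have a diamond in the shaded stretch from 60 bases before to 25 after the start.

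The transport kinesins differed among themselves and none passed the test. Of 13, limma called 0 (12.4% of all tested rows were called in either direction), and at an unadjusted p under 0.05, 3 were lower and 2 higher, against 16.4% and 14.5% of all rows. Their median log2 fold change was 0.004, against -0.01 over all tested rows. The groups did not overlap in 9 of the 13, 5 lower and 4 higher, against 31.7% and 28.5% of all rows.

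Kif5b, the heavy chain of conventional kinesin found in most cells, was the most abundant member of the whole family, above 90.1% of the rows of the table. It stood at 71.3 and 72.8 FPKM with lnc-31 siRNA and at 66.8 and 68.5 FPKM with scrambled siRNA (log2 fold change 0.09, 95% interval -0.01 to 0.19, adjusted p = 0.20). Kif5c, the heavy chain enriched in neurons, stood at 2.93 and 3.86 FPKM with lnc-31 siRNA and at 4.29 and 5.76 FPKM with scrambled siRNA. It had the lowest log2 fold change of all 32 members, -0.45, with a wide interval of -0.84 to -0.07 and no call (adjusted p = 0.12), and of the alternatives only a fit with the replicate number as a block called it (adjusted p = 0.03, with 7.7% of all rows called lower). Kif5c made up 3.95% and 5.03% of the summed Kif5b and Kif5c level with lnc-31 siRNA and 6.03% and 7.75% with scrambled siRNA. The 2 heavy chains therefore lay on opposite sides of 0, and the share of Kif5c did not overlap between groups. Kif5a had no row, so its level is unknown here.

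Kif1c, which carries vesicles from the Golgi and integrins, was the second most abundant transport kinesin. It stood at 44.6 and 45.4 FPKM with lnc-31 siRNA and at 48.5 and 50.8 FPKM with scrambled siRNA (log2 fold change -0.14, adjusted p = 0.099). Kif1b, a carrier of mitochondria and synaptic vesicle precursors, stood at 23.9 and 23.8 FPKM with lnc-31 siRNA and at 23.1 and 25.1 FPKM with scrambled siRNA, with the groups overlapping. Kif1a, the neuronal carrier of synaptic vesicle precursors, stood at 1.55 and 1.57 FPKM with lnc-31 siRNA and at 2.02 and 2.05 FPKM with scrambled siRNA. Its replicates were close and its log2 fold change of -0.24 had no call (adjusted p = 0.12), although a constant prior variance called it (adjusted p = 0.046).

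Kinesin-2, the motor of intraflagellar transport in cilia, is a trimer of Kif3a, Kif3b or Kif3c and the adaptor Kifap3. Kif3a stood at 13.4 and 12.7 FPKM with lnc-31 siRNA and at 11.6 and 12.3 FPKM with scrambled siRNA (log2 fold change 0.12, adjusted p = 0.25). Kif3b stood at 11.3 and 11.2 FPKM with lnc-31 siRNA and at 10.02 and 10.3 FPKM with scrambled siRNA (log2 fold change 0.13, adjusted p = 0.16). The motor pair was thus slightly higher with lnc-31 siRNA in both libraries without passing, and the ratio of Kif3b to Kif3a, 0.838 and 0.886 against 0.866 and 0.839, overlapped. Kif3c had a log2 fold change of -0.13 and Kifap3 stood at 16.9 and 17.05 FPKM with lnc-31 siRNA and 16.6 and 17.8 FPKM with scrambled siRNA.

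Kif21b, which slows microtubule growth and is best known from neurons and lymphocytes, had the highest log2 fold change of the family, 0.27 (95% interval 0.04 to 0.51, adjusted p = 0.12). It stood at 2.36 and 2.34 FPKM with lnc-31 siRNA and at 1.62 and 1.93 FPKM with scrambled siRNA. Its close relative Kif21a stood at 9.63 and 10.1 FPKM with lnc-31 siRNA and 9.76 and 9.82 FPKM with scrambled siRNA. Kif16b, a motor of early endosomes, and Kif13b overlapped between groups, at log2 fold changes of 0.004 and 0.03, and Kif13a, which carries recycling endosomes, had -0.13 with no overlap and no call (adjusted p = 0.22).

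Among the light chains, limma called 0 of 4, against 12.4% of all tested rows called in either direction. At an unadjusted p under 0.05, 1 of the 4, Klc2, was higher, against 14.5% of all tested rows, and with 4 genes both counts are near the background. Klc1, the second most abundant member of the family, stood at 53.1 and 52.9 FPKM with lnc-31 siRNA and at 53.7 and 51.9 FPKM with scrambled siRNA. Its log2 fold change of 0.01 had a 95% interval of -0.10 to 0.11. Klc2 stood at 14.9 and 14.1 FPKM with lnc-31 siRNA and at 12.02 and 12.9 FPKM with scrambled siRNA (log2 fold change 0.20, adjusted p = 0.09). Klc2 made up 20.4% and 19.3% of the light chain level with lnc-31 siRNA and 17.0% and 18.2% with scrambled siRNA.

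Klc4 and Klc3, the testis-enriched light chain, were the low members of this class. Klc4 stood at 3.66 and 3.74 FPKM with lnc-31 siRNA and at 3.09 and 3.69 FPKM with scrambled siRNA. Klc3 stood at 1.63 and 1.99 FPKM with lnc-31 siRNA and at 1.84 and 2.65 FPKM with scrambled siRNA. The order Klc1, Klc2, Klc4 and Klc3 was the same in all 4 libraries.

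Of the 5 other kinesins 4 were tested. None was called, against 12.4% of all tested rows, and none was past an unadjusted p under 0.05, against 16.4% lower and 14.5% higher, which with 4 genes is near the background. Kif2a, the microtubule depolymerase of interphase cells, neurons and spindle poles and a relative of Kif2c, stood at 29.1 and 27.6 FPKM with lnc-31 siRNA and at 30.2 and 30.0 FPKM with scrambled siRNA (log2 fold change -0.09, adjusted p = 0.28). Kif24, which restrains cilium growth at the centriole, stood at 5.21 and 5.23 FPKM with lnc-31 siRNA and at 5.06 and 5.30 FPKM with scrambled siRNA. Kif7, the ciliary regulator of Hedgehog signalling, stood at 2.21 and 2.26 FPKM with lnc-31 siRNA and at 2.34 and 2.41 FPKM with scrambled siRNA. Kif26b, needed for kidney development, stood at 1.54 and 1.57 FPKM with lnc-31 siRNA and at 1.46 and 1.43 FPKM with scrambled siRNA. Kif19a, a motor of motile cilia, was below the filter, at 0.391 in both libraries with lnc-31 siRNA and at 0.316 and 0.206 FPKM with scrambled siRNA, and was not tested. Kif2b, Kif6, Kif9, Kif12, Kif17, Kif26a, Kif27 and Kif28 had no row, so their levels are unknown here.

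Mitotic kinesins held the largest share of the family's summed FPKM of the 4 classes. Their summed level was 236.7 and 240.2 FPKM with lnc-31 siRNA and 281.1 and 281.0 FPKM with scrambled siRNA. This came to 43.2% and 43.5% of the summed FPKM of the 33 members with lnc-31 siRNA and to 47.8% and 46.9% with scrambled siRNA. Transport kinesins summed to 199.5 and 202.4 FPKM with lnc-31 siRNA and to 196.8 and 207.1 FPKM with scrambled siRNA, which overlapped. Light chains summed to 73.3 and 72.7 FPKM with lnc-31 siRNA and to 70.6 and 71.2 FPKM with scrambled siRNA. The mean log2(FPKM + 1) level of the mitotic class exceeded that of the transport class by 1.02 and 1.01 with lnc-31 siRNA and by 1.25 and 1.17 with scrambled siRNA. This difference did not overlap between the groups. In bulk RNA, fewer cells in mitosis and less of these messages per cell cannot be told apart.

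**Figure D4:**
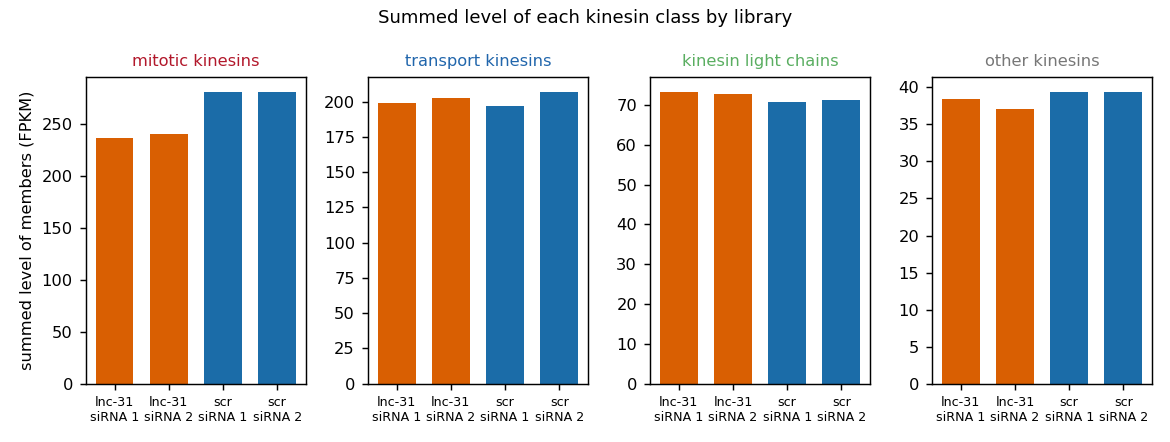
Summed level (FPKM) of the members of each class in each library, with the libraries labelled lnc-31 siRNA left of those with scrambled siRNA and each panel on its own axis from 0. The mitotic sum is 236.7 and 240.2 with lnc-31 siRNA and 281.1 and 281.0 with scrambled siRNA, while the transport sums overlap.

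Other genes of the same machinery were read from lists of their known roles. Of 11 genes of the chromosomal passenger complex, central spindle and cytokinesis, 7 fell (63.6%, against 6.78% of all tested rows) and none rose (5.64% of all tested rows), with a median of -0.19. They included Racgap1 (-0.33), the polo kinase Plk1 (-0.27), survivin (Birc5, -0.30) and the passenger scaffold Incenp (-0.25). Without scrambled siRNA 1, scrambled siRNA 2 or lnc-31 siRNA 1, none of this list was called, and without lnc-31 siRNA 2 Racgap1 was (adjusted p = 0.044), while the median stayed between -0.21 and -0.18.

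Of 16 spindle assembly partners, 6 fell (37.5%, against 6.78% of all tested rows) and none rose (median -0.17), among them Aurka, the spindle pole kinase (-0.32), the microtubule bundler Nusap1 (-0.34) and the kinetochore proteins Ska3 (-0.28) and Ska1 (-0.30). Without lnc-31 siRNA 1, Aurka and Nusap1 were called (adjusted p = 0.041 and 0.044), and with any other library left out, none was. With a constant prior variance 4 genes of each of these lists were called, and with the replicate block 10 of the spindle assembly partners were. Of all rows, these fits called 4.96% and 7.7% lower. Kinesin genes that the naming rule leaves out were read as well. Of 5 with a row (Kifc1, Kifc5b, Kifc3, Kifap3 and Cenpe), limma called 0, and 1 was lower at an unadjusted p under 0.05, against 16.4% of all tested rows. Cenpe, the kinetochore kinesin, stood at 14.7 and 15.6 FPKM with lnc-31 siRNA and at 15.4 and 16.3 FPKM with scrambled siRNA. Its groups overlapped, unlike those of the members of the mitotic class. The minus-end motor Kifc1 and its near-identical copy Kifc5b had log2 fold changes of -0.13 and -0.21 and no call, and reads may be split between them. Scaling by quantiles or by the median of ratios called 1 of the 5 lower, with 16.8% of all rows called in either direction.

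Among 17 regulators of mitotic genes there were 6 that fell (35.3%, against 6.78% of all tested rows) and none that rose, with a median of -0.14. Scaling by quantiles or by the median of ratios called 1 higher, with 16.8% of all rows called in either direction. E2f3, an activating E2F factor, stood at 13.4 and 12.6 FPKM with lnc-31 siRNA and at 20.2 and 22.4 FPKM with scrambled siRNA (log2 fold change -0.67, limma, adjusted p = 0.0079). Its partner Tfdp1 stood at 72.0 and 76.3 FPKM with lnc-31 siRNA and at 109.5 and 109.1 FPKM with scrambled siRNA (-0.55, limma, adjusted p = 0.0056). Both calls were kept with any 1 library left out (adjusted p between 0.0149 and 0.0395). The repressors E2f7 (-0.40) and E2f8 (-0.25) and the MuvB subunits Lin52 (-0.31) and Lin54 (-0.23) fell as well, but with 1 library left out Lin52, Lin54 and E2f8 lost their calls (adjusted p between 0.0695 and 0.155) and E2f7 kept its call only without lnc-31 siRNA 1 (adjusted p = 0.037). The E2F factors did not all lie lower. E2f2 stood at 25.3 and 25.5 FPKM with lnc-31 siRNA and at 20.3 and 22.7 FPKM with scrambled siRNA. Its log2 fold change of 0.23 had no call (limma, adjusted p = 0.068). E2f4 (0.10) and E2f1 (-0.07) had no call either. The B-MYB gene Mybl2 stood at 14.2 and 15.1 FPKM with lnc-31 siRNA and at 17.5 and 16.3 FPKM with scrambled siRNA (limma, adjusted p = 0.091). Foxm1 had no row under its own name, so its level is unknown here.

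The transport side of the machinery was read against the 5.64% of all tested rows called higher and the 6.78% called lower. Of 15 kinesin cargo adaptors 1 rose (6.67%), the lysosomal GTPase Arl8a (log2 fold change 0.19, median of the list 0.02), and the call was lost with any 1 library left out (adjusted p between 0.126 and 0.179). Of 29 genes of dynein and dynactin, the motor that runs the other way, 3 rose (10.3%) and 1 fell (3.45%), with a median of 0.02. Those that rose were Dctn4 (0.23), Ndel1 (0.20) and Dync1li2 (0.21), and Capza1 fell (-0.22). All 4 lost their calls with any 1 library left out (adjusted p between 0.069 and 0.182). Neither list had a call with a constant prior variance. Of 13 tubulins limma called 0, with 5 lower and 1 higher at an unadjusted p under 0.05, against 16.4% and 14.5% of all tested rows (median -0.14). Median of ratios scaling and the replicate block each called 3 tubulins lower, and quantile normalization called 1. Of all rows, these fits called 16.8%, 14.0% and 16.8% in either direction. Tubb5, the main beta-tubulin of growing cells, stood at 642.5 and 651.0 FPKM with lnc-31 siRNA and at 740.2 and 727.6 FPKM with scrambled siRNA (adjusted p = 0.058).

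**Figure D5:**
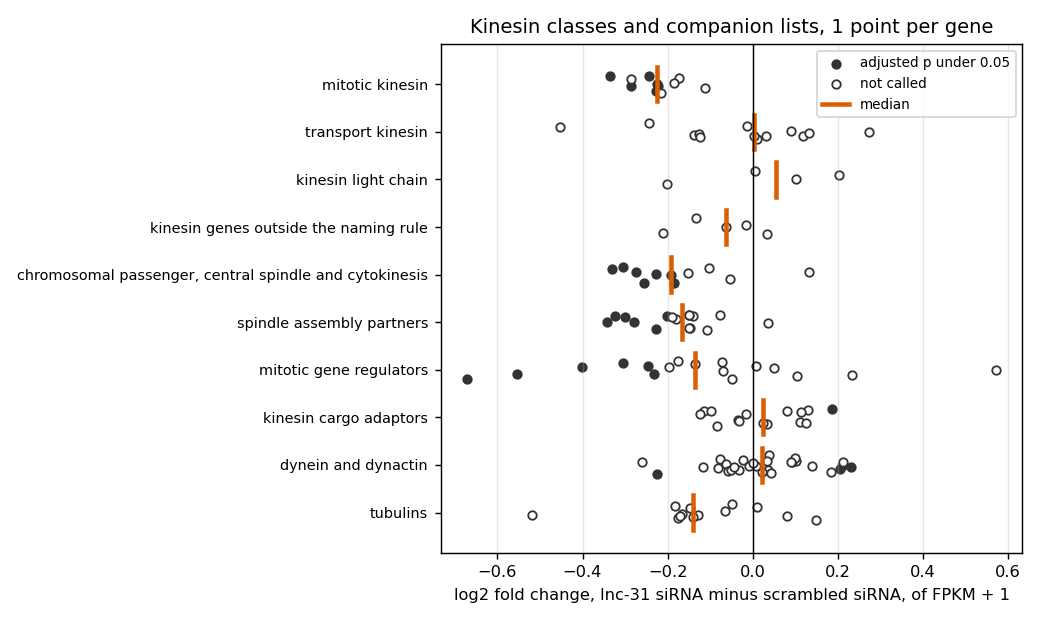
Log2 fold change of each tested gene, lnc-31 siRNA minus scrambled siRNA, in 3 kinesin classes and 7 lists of related genes, with filled points for genes that passed at an adjusted p under 0.05 and a bar at each median. The medians of the mitotic kinesins (-0.23) and of the passenger and central spindle genes (-0.19) lie below 0, and those of the transport kinesins (0.004), cargo adaptors (0.02) and dynein genes (0.02) lie close to it.

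The pull-down asked whether kinesin transcripts were recovered with lnc-31. The deposited lists held 596 peaks with lnc-31 probes and 476 with lacZ probes, and neither had a peak in the gene span of any of the 33 kinesins. Over 10304 tested rows matched to RefSeq, 1.66% had a lnc-31 probe peak and no lacZ peak. At so low a share, a count of 0 among 33 genes is near the background, and with 1 library per probe set there is no test.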

How the data were processed

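RNA from C2C12 cells was sequenced from 4 siRNA libraries prepared by a stranded mRNA protocol. The authors deposited FPKM values, and the submitters' processing notes name TopHat2 and Cuffdiff on mm10, beside Bowtie2, BWA, Trimmomatic and CASAVA, in no order. The pull-down lists were deposited with 1 number per peak that was read as a p-value from its range alone and was used only to restrict peaks in 1 alternative. The sources used here name no peak caller, and the input library was not analysed here. Whole reads could not be read back from steps in the low FPKM values. Depth is therefore unknown, and intervals for counting error are left out.

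Rows averaging 1 FPKM or more were fitted as log2(FPKM + 1) with limma 3.58.1 in R 4.3.3 (trended prior variance, prior degrees of freedom 3.62). The fit was tested on simulated data with planted changes larger than those of the called kinesins, so the simulation cannot speak for calls of their size. Peaks were assigned to RefSeq gene spans of GRCm38.p6 (the assembly behind mm10) at an overlap of 1 base or more. All 33 members matched a RefSeq gene. Tables and plots were made with matplotlib 3.10.9, numpy 2.4.6 and pandas 2.3.3 under Python 3.11.15. The members, roles and lists were chosen with earlier results of these data known. Values are given for all members, for up to 4 called genes of each list by smallest p (with further ones named after their values were seen) and for Mir31. Rock1 and Ybx1, which are no kinesins and were read beside Mir31, had log2 fold changes of 0.07 and -0.04 and no call. There were 0 sample columns without a label. The alternatives were other pseudocounts, filters and scalings, a block for the replicate number, a prior variance held constant, each library left out in turn and other rules for peaks.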

Additional observations from a re-analysis of the deposited data

How the results depend on the processing

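Depth is unknown, and 2 libraries a group limit every call. The median log2 fold change of mitotic kinesins ran from -0.24 to -0.21 over 12 alternatives, and all 11 members stayed below 0 in each. The 6 kinesins called lower became 3 with a constant prior variance (mitotic kinesins 2, transport kinesins 1, Kif1a) and 0 to 1 with 1 library left out, all of them mitotic. Fewer libraries leave fewer degrees of freedom, and 260 to 491 of all 11500 rows were then called, against 1429. Under pseudocounts of 0.1 and 0.5 the same 6 were called, without a filter 5 of them, and with a mean of 5 FPKM or more or median of ratios scaling these 6 and Kif18a. Quantile normalization kept 4 of the 6 and added Kif14 and Kif18a, with Kif20a at adjusted p = 0.053 and Kif22 at 0.052 (limma). Of all rows, 12.4% were called in either direction in the main fit and 9.39% with a constant prior variance. Pseudocounts of 0.1 and 0.5 called 12.7% and 12.5%, and the fit without a filter called 9.67%. A mean of 5 FPKM or more called 16.0%, and median of ratios scaling and quantile normalization each called 16.8%. No kinesin was called higher in any alternative.

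The transport median of 0.004 ran from -0.0399 to 0.0429 with 1 library left out. Genes near 0 changed sign. Under quantile normalization Kif16b was at -0.0221, Kif13b at -0.0033 and Kif24 at -0.0132. With 1 library left out Kif1b ran from -0.0723 to 0.0429, Kif21a from -0.0212 to 0.0421, Kif16b from -0.0399 to 0.0473, Kif13b from -0.0197 to 0.0796, Klc1 from -0.0178 to 0.0293 and Kif24 from -0.0187 to 0.0382. The cause was not tested.

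The labels give both groups the replicate numbers 1 and 2 without saying that a number marks a shared culture. Deviations from the group means of same-numbered libraries had a correlation of -0.09 across rows, so the numbers were not taken to pair them. With the replicate block, 1613 of all rows were called, 5 of the 6 kinesins kept their call (Kif20a had adjusted p = 0.052) and transport kinesins called became 1, Kif5c. The count of 0 kinesin genes with a lnc-31 probe peak and no lacZ peak stayed 0 with an overlap of 100 bases and with peaks under 0.001.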
